A study of Mus musculus with 4 samples.

Results

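The core circadian clock loop was followed here through 9 genes chosen by name, Arntl (also called Bmal1), Clock, Npas2, Rora, Per1, Per2, Per3, Cry1 and Cry2, out of 55401 genes counted in 4 RNA-seq libraries of mouse kidney and heart. All 9 genes were found by their Ensembl identifier. Each library was the only one of its group: kidney CLP, kidney CLP + MLT, heart CLP and heart CLP + MLT. The mice were C57BL/6, and all had sepsis induced by cecal ligation puncture (CLP), in which gut bacteria leak into the abdomen. For the kidneys, the sources describe male mice aged 8 weeks, kept in a 12 h light and 12 h dark cycle, with kidneys collected 24 h after CLP. The CLP + MLT kidney came from mice that drank water with 25 μg/ml melatonin during the 14 days before the operation, and no dose or time is given for the hearts. Both titles write the melatonin group as CLP+MLT4, the treatment field of the heart sample has CLP+MLT, and the 4 is not explained. Whether a library came from 1 mouse or several, whether kidney and heart came from the same mice, and the time of day at which the tissues were taken are stated by none of the sources used here. With 1 library per group, melatonin, the mouse and the time of day cannot be told apart, and no difference below could be set against the spread between mice.

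The circadian clock is a feedback loop of transcription that runs in nearly every cell. BMAL1, the protein of Arntl, pairs with CLOCK or with its relative NPAS2, and the pair binds DNA at the E-box to switch on the Per and Cry genes. PER and CRY proteins accumulate, enter the nucleus and repress the pair that made them, so that Per and Arntl transcripts peak at opposite phases of the day. RORA closes an additional loop: it activates Arntl through the RORE element, on which the REV-ERB proteins compete as repressors. Melatonin is the hormone of darkness made by the pineal gland, and kidney and heart both carry clocks of their own.

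In kidney and in heart alike, Arntl and Npas2 were lower, and Per2 and Per3 higher, in the CLP + MLT library than in the CLP library, each by at least 1.5-fold. Of the 9 genes, 3 were at least 1.5-fold higher and 2 at least 1.5-fold lower in each tissue. In kidney the higher ones were Per2, Per3 and Cry1, and in heart they were Per2, Per3 and Cry2. Of the 16932 kidney genes whose counts averaged at least 10, 22.6% were past 1.5-fold, 11.0% higher and 11.6% lower. Over the 15871 heart genes kept in this way, 23.5% were past it, 10.9% higher and 12.6% lower. All 9 clock genes passed that filter in both tissues. Their median log2 ratio was -0.042 in kidney and 0.23 in heart, beside medians of 0.0029 and 0.0023 over all genes, since the loop held genes on either side. The ratio had the same sign in both tissues for 7 of the 9 genes, the exceptions being Per1 and Rora, and 4 of the 9 were at least 1.5-fold apart in the same direction in both, beside 523 of the 14592 genes kept in both tissues, or 3.58%. Npas2, with its kidney interval that included 0, is counted among these 4.

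Ratios are those of CLP + MLT over CLP on the log2 scale, after TMM scaling within the tissue and a prior count of 0.5. Levels are CPM, counts per 1000000 of the scaled library. Each interval is a 95% exact interval for counting error only, and it says nothing of the spread between mice. At a fold of at least 2, Arntl, Per2 and Per3 were past the limit in kidney, where 9.03% of all genes were, and Arntl and Npas2 in heart, where 9.82% were. With an exact binomial p of at most 0.01 on the reads added to the 1.5-fold limit, 4 of the 9 genes remained in kidney, where 15.0% of all genes did, and 5 in heart, where 15.6% did. As the variation between mice was not measured, edgeR's exact test was also run at assumed values of it. At 0.2, Arntl and Per3 were past 1.5-fold with an unadjusted p of at most 0.01 in kidney, where 3.66% of all genes were, and Arntl and Npas2 in heart, where 4.17% were. At 0.4, 0 of the 9 genes were, beside 90 of all genes in kidney and 63 in heart.

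**Figure D1:**
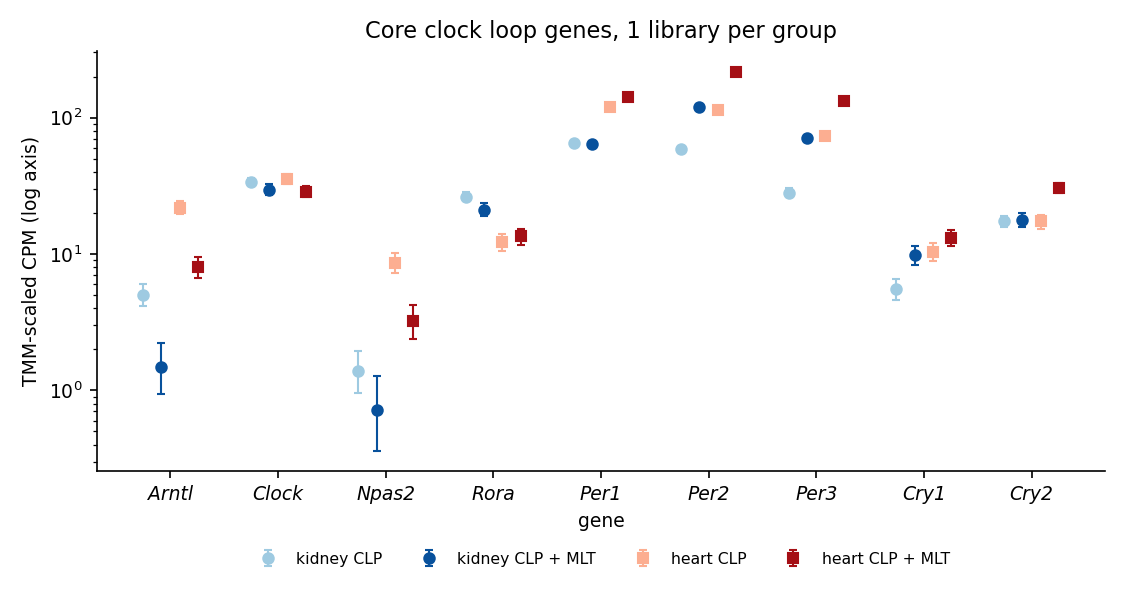
Level of each clock loop gene in each of the 4 libraries, as TMM-scaled CPM on a log axis, with 95% exact Poisson intervals for counting error as bars. In both tissues the point of the CLP + MLT library lies below that of the CLP library for Arntl and Npas2 and above it for Per2 and Per3.

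The libraries held 15883057 to 22927905 reads counted on genes. Mitochondrially encoded genes held 14.8% of these reads in kidney CLP and 24.2% in kidney CLP + MLT, and 31.6% and 36.0% in the hearts. The summed markers matched the labelled tissues: 10 kidney epithelium genes summed to 9014 and 9964 CPM in the kidneys and to 147 and 258 CPM in the hearts, and 10 cardiomyocyte genes summed to 38610 and 22130 CPM in the hearts and to 13.6 and 19.9 CPM in the kidneys. In heart, 1 of the 10 cardiomyocyte genes, the atrial gene Myl7, went against the label, with 1 count in CLP and 0 in CLP + MLT beside 54 and 30 in the kidneys. If the kidney epithelium genes in heart were taken as kidney RNA at the same share of every gene, that RNA would make up at most 3.50% of the CPM of any of the 9 clock genes in heart CLP and 4.06% in heart CLP + MLT, the highest share being that of Rora.

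The activating genes of the loop differed in how far they stood apart. Arntl (ENSMUSG00000055116.8, chromosome 7 from 113207465 to 113314126, GRCm38) encodes the obligate partner of the activating pair. It had 123 counts in kidney CLP, 23 in kidney CLP + MLT, 357 in heart CLP and 129 in heart CLP + MLT. As CPM these were 5.01 and 1.49 in kidney and 21.9 and 7.97 in heart, so that the CLP + MLT library was the lower in each tissue. The log2 ratio was -1.73 (-2.46 to -1.10) in kidney and -1.46 (-1.76 to -1.16) in heart, or 3.32-fold and 2.74-fold lower. Both intervals lay wholly beyond a 1.5-fold difference. Among all genes kept, 2.51% in kidney and 4.01% in heart stood at least as far from 0 in either direction. Fewer cells of a type and less RNA per cell cannot be told apart in these bulk libraries, for Arntl or for any other gene.

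Npas2 (ENSMUSG00000026077.15, chromosome 1 from 39193731 to 39363236) encodes a partner of BMAL1 that can stand in for CLOCK. It had 34 and 11 counts in kidney, the fewest of the 9 genes, and 141 and 52 in heart. Its log2 ratio was -0.93 (-2.09 to 0.059) in kidney and -1.42 (-1.92 to -0.96) in heart. The kidney interval reached past 0, so at this depth the kidney value alone was not distinguishable from no difference, while the heart interval lay wholly beyond a 1.5-fold difference.

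Clock (ENSMUSG00000029238.11, chromosome 5 from 76209868 to 76304792), which gives the loop its other BMAL1 partner, was close in the paired libraries. It had 829 and 455 counts in kidney, or 33.8 and 29.5 CPM, and 579 and 462 counts in heart, or 35.5 and 28.5 CPM. The log2 ratio was -0.19 (-0.36 to -0.027) in kidney and -0.32 (-0.50 to -0.14) in heart, lower in CLP + MLT in both tissues and within 1.5-fold in both. Clock thus lay on the same side of 0 as Arntl and Npas2, with a ratio nearer to it.

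Rora (ENSMUSG00000032238.17, chromosome 9 from 68653786 to 69388246) encodes the nuclear receptor that activates Arntl. It had 644 and 325 counts in kidney and 199 and 218 in heart. Its log2 ratio was -0.31 (-0.51 to -0.12) in kidney and 0.14 (-0.14 to 0.43) in heart, within 1.5-fold in both. The heart interval included 0, so the opposite sign was not distinguishable from no difference at this depth.

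The letters through which RORA and the REV-ERB proteins act on Arntl are shown because Arntl had the lowest ratio of the 9 genes in either tissue. The RORE was searched as TAGGTCA or TGGGTCA on both strands in RefSeq windows (GRCm38.p6). These ran from 250 bases before to 50 bases after each annotated start. Such windows were given for 8 of the 9 genes, all but Per2, which was not searched. The RORE was found in 1 of these 8, Arntl, in the second of its windows. It stood at bases 31 to 37 counted from the annotated RefSeq start of that window's transcript, not from the window's edge, and within an annotated exon. Of all 27025 genes with a window, 7.35% held it. The stretch of the + strand at chr7:113207531-113207557 reads as follows, with the RORE in capitals.
Arntl RORE: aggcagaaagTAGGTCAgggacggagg

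**Figure D2:**
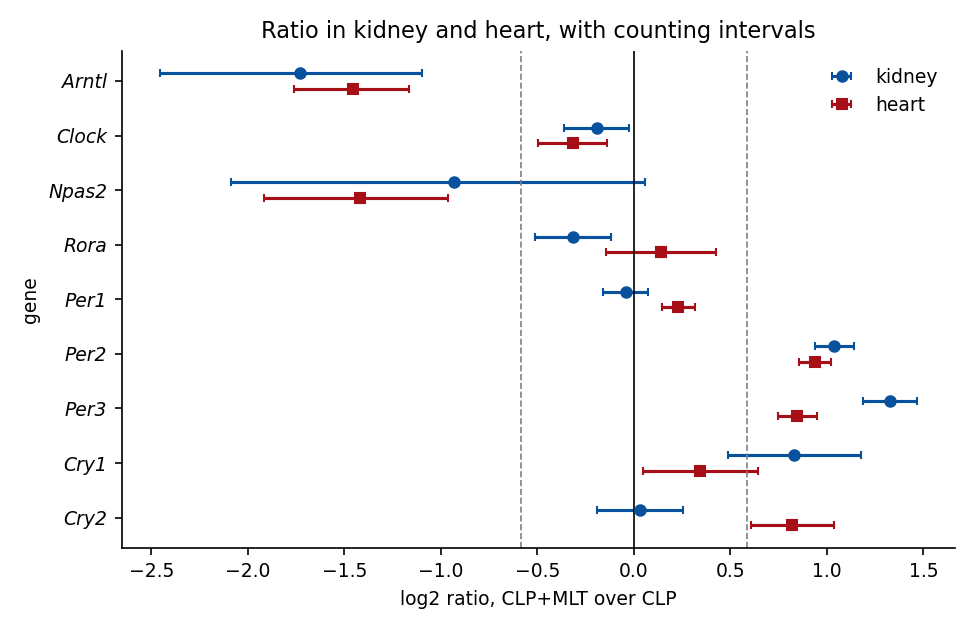
Log2 ratio of CLP + MLT over CLP for the 9 genes in kidney (circles) and heart (squares), with 95% exact counting intervals; dashed lines mark a 1.5-fold difference. Arntl, Per2 and Per3 lie wholly outside the dashed lines in both tissues, and Npas2 and Cry2 do so in heart.

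The Per genes had the highest levels per kilobase of exon in the loop, though that of Per3 overlapped that of Cry2 in kidney CLP, and their ratios differed. Per2 (ENSMUSG00000055866.9, chromosome 1 from 91415982 to 91459324) encodes a main repressor of the loop. It had 1432 and 1846 counts in kidney, or 58.4 and 119.9 CPM, and 1842 and 3507 counts in heart, or 113.0 and 216.6 CPM. Its log2 ratio was 1.04 (0.94 to 1.14) in kidney and 0.94 (0.86 to 1.02) in heart, so that the intervals of the tissues overlapped. As a fold this was 2.05 and 1.92.

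Per3 (ENSMUSG00000028957.12, chromosome 4 from 151003652 to 151044665), a relative whose loss leaves the clock running, had 692 and 1089 counts in kidney and 1202 and 2148 in heart. The CPM was 28.2 and 70.7 in kidney and 73.7 and 132.6 in heart. The log2 ratio was 1.33 (1.19 to 1.47) in kidney, the highest of the 9 genes there, and 0.85 (0.74 to 0.95) in heart. These intervals did not overlap, but with scaling by library size only they did, at 1.13 (0.99 to 1.27) and 0.90 (0.80 to 1.01), so no order of the tissues is given.

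Per1 (ENSMUSG00000020893.17, chromosome 11 from 69095217 to 69109960), which is also induced acutely by glucocorticoids and other stress signals, stayed within 1.5-fold. It had 1608 and 980 counts in kidney, or 65.5 and 63.7 CPM, and 1965 and 2290 counts in heart, or 120.5 and 141.4 CPM. The log2 ratio was -0.042 (-0.16 to 0.073) in kidney and 0.23 (0.14 to 0.32) in heart. A kidney difference was not detectable at this depth with TMM scaling, where the interval left room for no more than a log2 difference of 0.16 either way from counting error. With scaling by library size only, the kidney ratio was -0.24, outside that interval, so the bound holds for TMM scaling alone.

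Within the Per family the make-up therefore differed between the libraries, a measure that needs no scaling between libraries. Per1 made up 43.1% (41.5 to 44.7) of the Per counts in kidney CLP and 25.03% (23.7 to 26.4) in kidney CLP + MLT. In heart it made up 39.2% (37.9 to 40.6) and 28.8% (27.8 to 29.8). Per2 made up 38.4% and 47.2% in kidney and 36.8% and 44.1% in heart. The Per1 count over the Per2 count was lower in CLP + MLT by a log2 difference of -1.08 (-1.23 to -0.93) in kidney and -0.71 (-0.83 to -0.59) in heart. Per3 over Per2 was higher in kidney by 0.29 (0.12 to 0.46) and differed by -0.092 (-0.22 to 0.041) in heart.

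**Figure D3:**
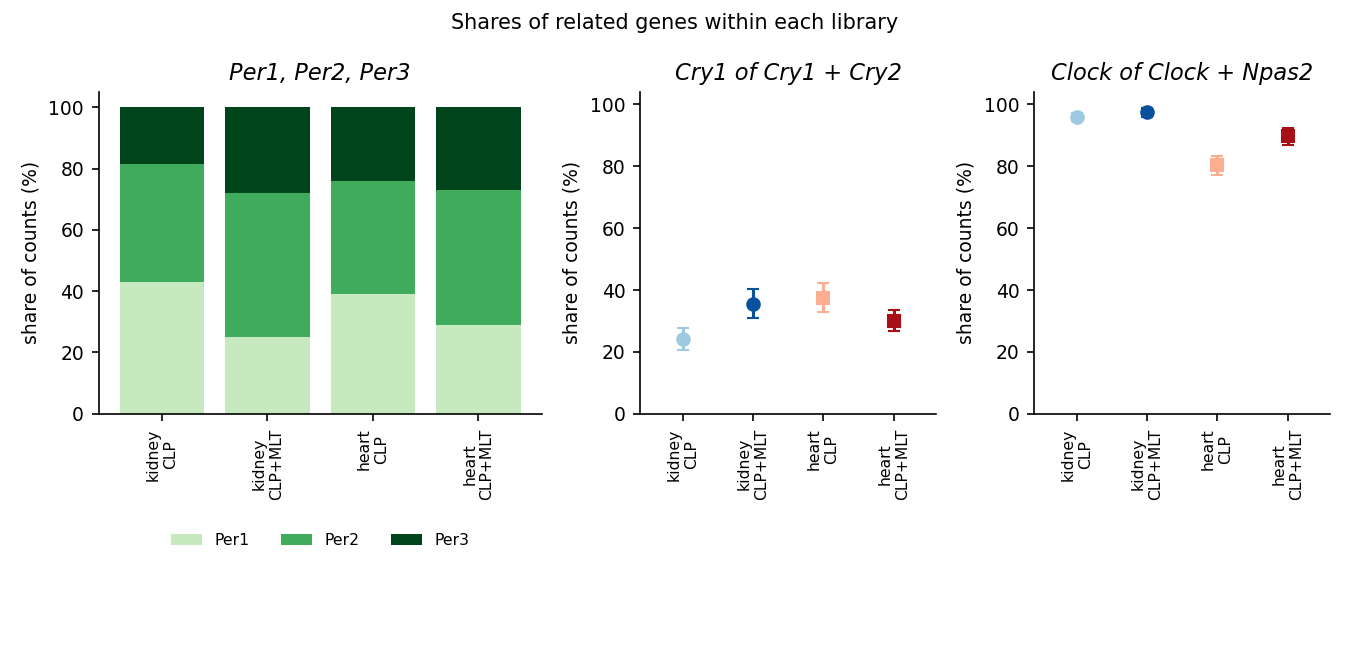
Shares of counts within each library: Per1, Per2 and Per3 of their sum as stacked bars, Cry1 of Cry1 plus Cry2, and Clock of Clock plus Npas2, the points with 95% exact binomial intervals. The share of Per1 is the lower in CLP + MLT in both tissues, while the share of Cry1 is the higher in CLP + MLT in kidney and the lower in heart.

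The Cry gene past 1.5-fold was Cry1 in kidney and Cry2 in heart. Cry1 (ENSMUSG00000020038.10, chromosome 10 from 85131700 to 85185064) encodes the stronger repressor of the CRY pair. It had 135 and 151 counts in kidney, or 5.50 and 9.81 CPM, and 169 and 213 counts in heart, or 10.4 and 13.2 CPM. The log2 ratio was 0.83 (0.49 to 1.18) in kidney and 0.34 (0.046 to 0.64) in heart, and these intervals overlapped.

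Cry2 (ENSMUSG00000068742.11, chromosome 2 from 92403646 to 92434043), whose protein is the other CRY repressor, had 425 and 273 counts in kidney, or 17.3 and 17.7 CPM, and 282 and 495 counts in heart, or 17.3 and 30.6 CPM. The log2 ratio was 0.033 (-0.19 to 0.26) in kidney and 0.82 (0.61 to 1.04) in heart. CPM were scaled within each tissue, so the 17.3 CPM of both CLP libraries does not compare kidney with heart. Within heart, the CLP + MLT library was the higher. When kidney was scaled by library size only, which shifted the median of all kidney genes to -0.19, the kidney ratio of Cry2 turned to -0.16, so that no direction is given for it.

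The share of Cry1 in the Cry counts was 24.1% (20.6 to 27.9) in kidney CLP and 35.6% (31.0 to 40.4) in kidney CLP + MLT. In heart it was 37.5% (33.0 to 42.1) and 30.1% (26.7 to 33.6). The share of Clock in the sum of Clock and Npas2 was 96.1% (94.5 to 97.3) and 97.6% (95.8 to 98.8) in kidney and 80.4% (77.3 to 83.3) and 89.9% (86.9 to 92.4) in heart. Npas2 thus made up a larger part of the pair in heart than in kidney under either treatment.

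Sequence before RefSeq starts of the Per and Cry genes is shown because these genes are the textbook targets of the BMAL1 and CLOCK pair. The E-box was searched as CACGTG, which reads the same on both strands, and the D-box, bound by the DBP, TEF and HLF activators and the NFIL3 repressor, as TTATGNAA on both strands. None of these matches overlapped another. Per2 had no window, so neither was searched there. The E-box was found before Per1 and Cry1, 2 of the 8 genes with a window, and in 8.09% of all genes. The D-box was found before Per1 and at a pair of places before Per3, again 2 of the 8 genes, and in 3.99% of all genes. The matched letters are in capitals, each stretch is read 5′ to 3′ along the gene, and none lies in an annotated exon. The stretches are the + strand at chr11:69098743-69098828 and chr11:69098885-69098947 for Per1, and the - strand at chr4:151044776-151044910 for Per3 and chr10:85185069-85185154 for Cry1.
Per1 E-box: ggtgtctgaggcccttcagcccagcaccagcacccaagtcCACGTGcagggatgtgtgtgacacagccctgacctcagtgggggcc
Per1 D-box: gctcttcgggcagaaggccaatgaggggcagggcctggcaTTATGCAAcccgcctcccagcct
Per3 D-boxes: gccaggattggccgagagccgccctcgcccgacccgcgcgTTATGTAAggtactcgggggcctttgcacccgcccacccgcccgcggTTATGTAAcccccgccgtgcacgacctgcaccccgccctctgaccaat
Cry1 E-box: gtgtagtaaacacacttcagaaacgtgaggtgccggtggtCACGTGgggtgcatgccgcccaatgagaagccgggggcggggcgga
Counted from the annotated RefSeq start, with bases before it negative, the E-box of Per1 stood at -166 to -161 and its D-box at -24 to -17. They lay in the first of the 2 Per1 windows. That window is inside the span of Per1 given above, which begins at 69095217. The Per3 D-boxes stood at -205 to -198 and -158 to -151, and the Cry1 E-box at -60 to -55. Per1, which held both kinds of letters, stayed within 1.5-fold in both tissues, and Per3, with a pair of D-boxes, was past it in both. Cry1, with an E-box, was past it in kidney only, and Cry2, in which no match was found, in heart only. Per2, which was not searched, was past it in both. Whether these letters bear on the ratios was not tested.

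Levels of different genes were compared as CPM per kilobase of merged exons. In kidney CLP the order ran from Per1 at 11.6, Per2 at 9.97 and Per3 at 2.94 through Cry2 at 2.74, Clock at 2.46, Rora at 2.01 and Cry1 at 1.65 to Arntl at 0.67 and Npas2 at 0.29 CPM per kilobase. The intervals of Per3 and Cry2, of Cry2 and Clock, and of Rora and Cry1 overlapped, and those of the other neighbours in the order did not. In kidney CLP + MLT, Per2 at 20.5 stood above Per1 at 11.3, Per3 was at 7.36, Cry1 at 2.94 and Cry2 at 2.81, and Arntl at 0.20 and Npas2 at 0.15 could not be ordered. The levels thus ran from 0.15 to 20.5 CPM per kilobase in that library.

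In heart CLP, Per1 at 21.4 stood above Per2 at 19.3 and Per3 at 7.67. Cry1 at 3.10, Arntl at 2.91, Cry2 at 2.74 and Clock at 2.59 followed with intervals that overlapped from each to the next, and Npas2 at 1.80 and Rora at 0.93 CPM per kilobase closed the order. In heart CLP + MLT, Per2 at 37.0 again stood above Per1 at 25.1, with Per3 at 13.8, Cry2 at 4.84, Cry1 at 3.94 and Clock at 2.08. Arntl at 1.06 and Rora at 1.03 were not distinguishable, and Npas2 at 0.67 was last. Per1 and Per2 therefore stood in opposite order in the CLP and the CLP + MLT library of both tissues, with intervals that did not overlap in any of the 4 libraries. Among protein-coding genes kept, Arntl stood at percentile 14.4 of this level in kidney CLP and 4.28 in kidney CLP + MLT, and at 43.5 and 21.7 in the hearts.

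Counts were also set over those of Arntl in the same library, a measure free of the scaling. Since Arntl had the lowest ratio of the 9 genes in both tissues, each other gene had to come out higher over it in CLP + MLT, and only the sizes are described. Per2 had a log2 count ratio over Arntl of 3.54 in kidney CLP and 6.30 in kidney CLP + MLT, a difference of 2.76 (2.12 to 3.50) or 6.77-fold. In heart the ratio was 2.37 and 4.76, a difference of 2.39 (2.09 to 2.71) or 5.25-fold. Per3 over Arntl differed by 3.05 (2.40 to 3.80) in kidney and 2.30 (1.99 to 2.62) in heart. Cry1 over Arntl differed by 2.55 in kidney and 1.80 in heart, and Cry2 by 1.76 and 2.28. Npas2 over Arntl differed by 0.81 (-0.54 to 2.05) in kidney and 0.035 (-0.55 to 0.59) in heart. All these differences share the Arntl counts of the library, 23 in the kidney CLP + MLT library being the fewest, and they are not independent of each other.

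**Figure D4:**
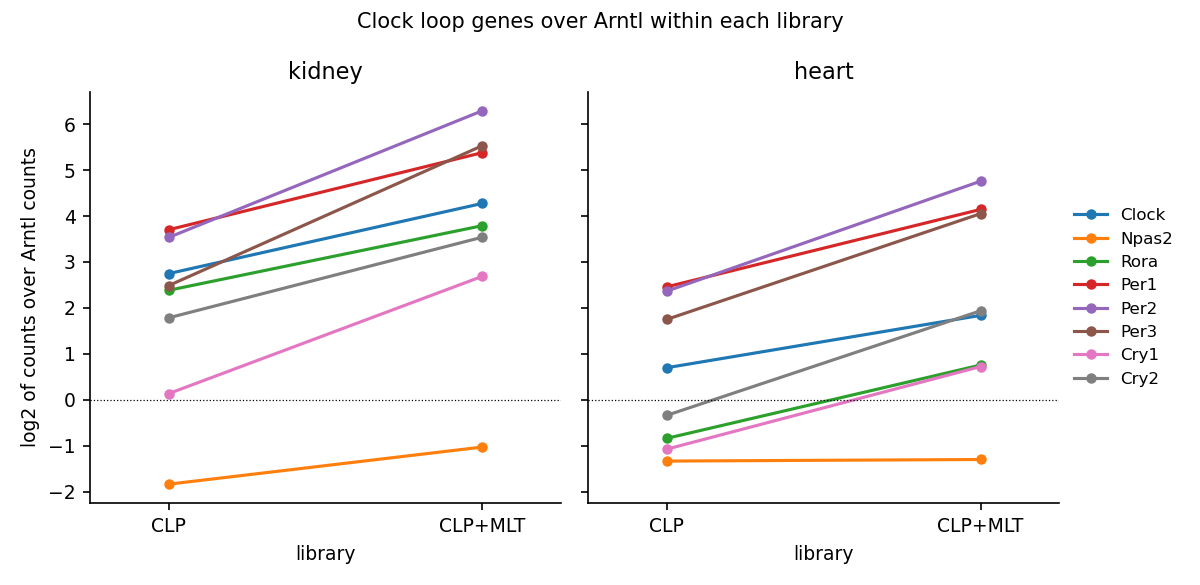
Log2 of the counts of each loop gene over the counts of Arntl in the same library, for CLP and CLP + MLT, in kidney and heart. The line of Npas2 is nearly flat in heart, at -1.34 and -1.30, while that of Per2 ends highest in the CLP + MLT library of each tissue, at 6.30 in kidney and 4.76 in heart.

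Of 10 further clock genes known as E-box targets, all kept in both tissues, 4 were at least 1.5-fold higher and 1 lower in kidney, and 5 higher and 0 lower in heart, beside 11.0% higher and 11.6% lower of all kidney genes and 10.9% and 12.6% of all heart genes. The median log2 ratio of the list was 0.36 and 0.62. Ciart, which encodes a repressor of the BMAL1 pair, had log2 ratios of 1.65 in kidney and 0.94 in heart. Dbp, the D-box activator, had 0.93 and 1.30, and its relative Tef had 0.82 and 0.74. These 3 were the genes of the list past 1.5-fold in the same direction in both tissues.

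The REV-ERB genes did not follow each other: Nr1d1 had 1906 and 775 counts in kidney, a log2 ratio of -0.63 (-0.75 to -0.51), and 1086 and 1049 counts in heart, a log2 ratio of -0.040 (-0.16 to 0.084). Nr1d2 had a log2 ratio of 0.72 (0.63 to 0.80) in kidney and 0.45 (0.39 to 0.50) in heart. Among genes related to the RORE, Nfil3, which encodes the D-box repressor, was lower in both tissues with log2 ratios of -0.88 and -0.81. Rorb fell under the filter, with at most 8 counts, and Arntl2, the relative of Arntl, had log2 ratios of -0.10 and 0.37.

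Genes whose products modify or partner clock proteins are listed next, beside the 22.6% of all kidney genes and 23.5% of all heart genes past 1.5-fold, or 15.1% and 15.5% among genes averaging 50 counts or more. Of 14 genes for kinases, ubiquitin ligases and a few other proteins, among them Csnk1d and Csnk1e, 14 were kept in kidney with 0 higher and 1 lower past 1.5-fold, and 13 in heart with 1 higher and 0 lower. That gene was in both cases Prkaa2, a catalytic subunit of the energy sensor AMPK, which phosphorylates CRY, with log2 ratios of -0.66 in kidney and 0.63 in heart. Of 11 coregulator genes, 0 were past 1.5-fold in either tissue, and the farthest were Sirt1 at 0.36 in kidney and Hdac3 at -0.18 in heart. The melatonin receptor genes Mtnr1a and Mtnr1b had 0 counts in 3 of the libraries and in kidney CLP + MLT 0 and 1. For the 0 counts, a floor of 3 counts allows up to 0.122 to 0.195 CPM, depending on the library. That floor does not cover the 1 count of Mtnr1b. Aanat and Asmt, the enzymes of melatonin synthesis, had at most 1 count in any library.

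The genes nearest to Arntl in both ratios at once were sought among 8940 named genes averaging 100 counts or more in each tissue, by the straight-line distance in the plane of the kidney and heart log2 ratios. They were Syt12 at a distance of 0.32, C4b at 0.43, Lbp at 0.51, Zbtb16 at 0.52 and Cdkn1a at 0.54. Nearest to Per2 were C3ar1 at 0.067, Polr3e at 0.12, Avpr2 at 0.17, Mfsd4b5 at 0.22 and Cish at 0.23. The likeness rests on 2 ratios, each from a single pair of libraries.

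**Figure D5:**
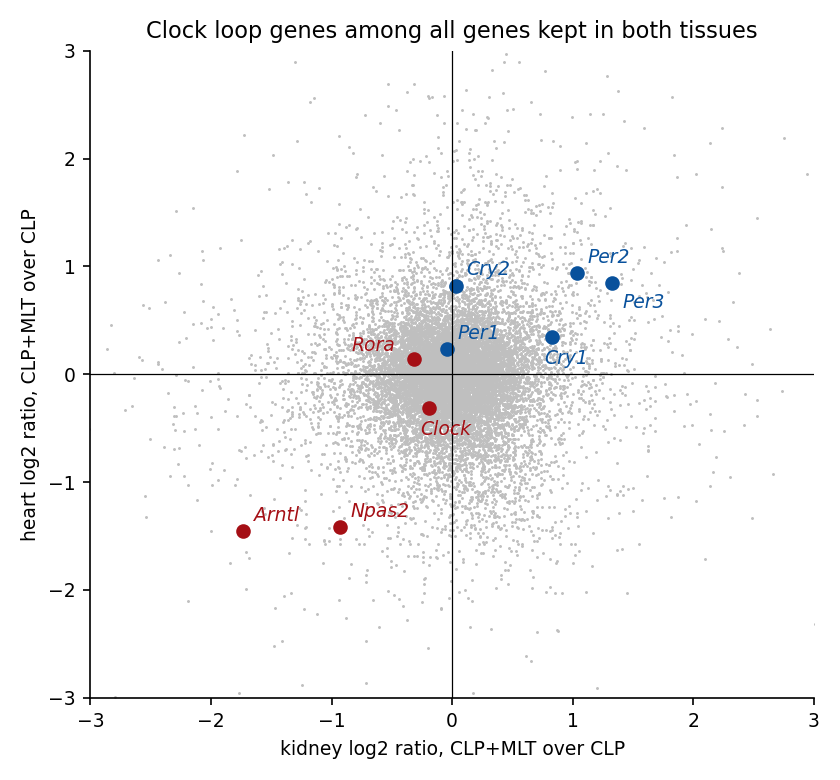
Log2 ratio of CLP + MLT over CLP in kidney (x axis) and heart (y axis) for 14592 genes kept in both tissues (grey), with the activating genes and Rora in red and the Per and Cry genes in blue; 68 genes lie beyond the axis limits. Arntl and Npas2 lie at the lower left and Per2 and Per3 at the upper right.

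Markers of cell types were also compared between the paired libraries. Beside the counts below, 11.0% of all kidney genes were at least 1.5-fold higher and 11.6% lower. In heart these shares were 10.9% and 12.6%. In heart, the summed cardiomyocyte genes had a log2 ratio of -0.80, with 5 of the 9 genes kept at least 1.5-fold lower and 0 higher, and the summed kidney epithelium genes had 0.82, with 4 of 9 higher and 0 lower. In kidney, the summed macrophage genes stood at 118 and 236 CPM, with 3 of 7 higher, 0 lower and a median log2 ratio of 0.31. Csf1r stood at 46.5 and 101.9 CPM and Lyz2 at 22.5 and 79.2 CPM, while 4 of the 7 genes were within 1.5-fold. Among those 4, Cd68 had a log2 ratio of -0.49. The summed neutrophil genes in kidney stood at 22.7 and 16.2 CPM, with 1 of 6 higher and 3 lower, and the summed endothelial genes at 211 and 162 CPM, with 0 of 6 past 1.5-fold. In heart the macrophage sum was 264 and 301 CPM, yet 2 of the 8 genes were higher and 3 lower with a median log2 ratio of -0.29, Lyz2 standing at 61.2 and 134 CPM while Mrc1, C1qa and Cd163 were lower. The neutrophil sum in heart was 56.1 and 41.6 CPM, with 1 of 7 higher and 3 lower, and the endothelial sum 709 and 848 CPM, with 1 of 6 higher and 0 lower. The lymphocyte sum was 2.16 and 1.56 CPM in kidney and 0.98 and 1.17 CPM in heart, with 3, 2, 5 and 4 of its 8 genes at 0 counts in the order of the libraries given at the start. The adipocyte sum was 96.2 and 84.2 CPM in kidney and 1612 and 1775 CPM in heart, nearly all of it Fabp4, which endothelial cells also express, with Adipoq at 0 counts in both kidneys and at 12 and 1 in the hearts, and the erythroid sum was 68.4 and 82.2 CPM in kidney and 257 and 224 CPM in heart. The part of these cells in the clock gene ratios was not tested.

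Some counts can hold reads of overlapping genes, since the strand setting of the counting is not given. Cry2 shares 295 exonic bases with D930015M05Rik on the other strand, which had 4 to 16 counts. Rora shares 82 with Gm15511, which had 0 or 1 count, and Arntl shares 33 with Gm45355, which had 8, 0, 7 and 8 counts. Reads of a gene and of its antisense partner cannot be told apart without strand, and the other genes of the loop shared no exonic base with another annotated gene.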

How the data were processed

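Total RNA was enriched for poly(A) and sequenced from 4 libraries, 1 per group. The authors deposited raw counts of reads per gene. Their processing notes name trim-galore, HISAT2 2.1.0, HTSeq and the mm10 build, while the HTSeq version, strand setting and annotation were not given in the sources used here. Totals that name no gene (65.5% to 72.8% of the reads in a file) were left out.

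From the counts, genes averaging at least 10 over both libraries of the tissue were retained and TMM factors computed on them in edgeR 4.0.16 (R 4.3.3). Log2 ratios used a prior count of 0.5. A single library per group gives no dispersion, so the edgeR analysis stated in the study was replaced by its fold of at least 1.5, with 95% Clopper-Pearson, Poisson or conditional odds ratio intervals (scipy 1.17.1, Python 3.11.15) for counting error only, as PCR copies are not independent molecules. The edgeR exact test at assumed variations, DESeq2 1.42.0 size factors, library size, upper quartile, other filters and priors, removal of mitochondrial and haemoglobin genes, and removal of a length trend were alternatives. The procedure was tested on simulated counts. Positions came from GENCODE M21 (GRCm38, the mm10 build), which matched 55141 of 55401 identifiers without version.

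The members and gene lists were chosen with earlier results of these data known. Named were the 9 members, genes of each list past 1.5-fold in the same direction in both tissues (if none, the farthest per tissue), and the 5 genes nearest to Arntl and to Per2. Nr1d1, Nr1d2, Rorb, Arntl2, Myl7, Fabp4, Adipoq, Lyz2, Csf1r, Cd68, Mrc1, C1qa and Cd163 were named after their values were seen, and the share of kidney RNA in heart was computed later.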

Additional observations from a re-analysis of the deposited data

Results flagged for a closer look

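Results were singled out where the ratio of CLP + MLT over CLP had opposite signs in kidney and heart and the counting intervals excluded 0 in both, and for genes outside the loop also where both ratios were past 1.5-fold. With 1 library per group, the difference between the tissues was not tested.

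The Cry1 count over the Cry2 count in the same library was higher in CLP + MLT in kidney, by a log2 difference of 0.80 (0.39 to 1.21), and lower in heart, by -0.48 (-0.85 to -0.11). In kidney Cry1 was the gene of the pair past 1.5-fold, and in heart it was Cry2.

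Prkaa2 had 1585 counts in kidney CLP and 631 in kidney CLP + MLT, a log2 ratio of -0.66 (-0.79 to -0.52), and 144 and 222 counts in heart, a ratio of 0.63 (0.33 to 0.95).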

How the results depend on the processing

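The counts of 3 higher and 2 lower clock genes in each tissue held under every scaling, prior count and length correction tried, and with no filter. In kidney, 1 gene was lower among genes averaging 50 counts or more, at a fold of at least 2, with an exact binomial p of at most 0.01 on the reads, and in edgeR's exact test at an assumed variation of 0.2; Npas2 was the gene lost. That edgeR test left 1 gene higher in kidney and 0 in heart, and a fold of at least 2 left 0 higher in heart. At an assumed variation of 0.4, edgeR left 0 higher and 0 lower in both tissues. Of 143 alternative values of single genes, 139 lay within the counting interval. The 4 outside it were Clock, Per1, Per2 and Per3 in kidney scaled by library size only, with log2 ratios of -0.39, -0.24, 0.84 and 1.13. The sign of 1 ratio, that of Cry2 in kidney, turned under that scaling, which also moved the share of kidney calls that were higher from 48.6% to 26.6%. Of all genes, 3834 were past 1.5-fold in kidney and 3723 in heart, against 10700 and 10463 when no genes were filtered out, 2015 and 1878 among genes averaging 50 counts or more, 1529 and 1559 at 2-fold, 2547 and 2477 with the binomial test, and 619 and 662 with edgeR at 0.2. A prior count of 5 left the ratio of Per2 over Arntl and the shares of Cry1 and Clock within counting error. No paired analysis was possible because each group had 1 library. Depth limits Npas2 in kidney most, with 11 counts in its lower library.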
